A study of Mus musculus with 3 samples.

Results

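The leukaemia inhibitory factor (LIF) receptor and STAT3 signalling genes are 10 genes taken by name from a table of 39179 mouse genes. They are the ligand gene Lif, the receptor genes Lifr, Il6st and Osmr, the kinase gene Jak1, the transcription factor gene Stat3, and the genes Socs3, Pim1, Pim3 and Bcl3, which STAT3 is known to induce. The rule is their names and uses no measured value, although the 10 genes were chosen with earlier results of these data known. RNA was sequenced from mouse embryonic stem cells (ESCs) of the line E14tg2a, in a study of ZMYM2 (also called ZFP198), a zinc finger protein that binds the pluripotency factor NANOG and was examined there as an inhibitor of reprogramming and self renewal. There were 3 libraries, 1 per condition, all of cells grown with serum and with LIF added to the medium. WT cells were unmodified E14tg2a. In the KO line both Zmym2 alleles carried a frameshift made with Cas9, and by the study's methods such lines were grown from sorted single cells, so KO stands for 1 clone. OE cells carried a Zmym2 transgene integrated with the PiggyBac transposon and were drug selected, there was no empty-vector library, and the promoter of the transgene was not given in the sources used here.

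In mouse ESCs, LIF binds the LIF receptor, which then pairs with gp130, the shared signalling chain of the interleukin 6 family. JAK kinases bound to the receptor tails phosphorylate STAT3, which enters the nucleus and activates genes that hold the cells in self renewal. Some of these genes feed back on the pathway, and the best known of them, Socs3, encodes a protein that blocks JAK activity at gp130. The messenger levels below do not measure STAT3 phosphorylation, which is the active step of this pathway.

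Library titles gave the groups. The line descriptions stored with the KO and OE libraries were exchanged relative to these titles, and Zmym2 itself followed the titles, with 7956 normalised counts in WT, 4370 in KO and 57139 in OE. A normalised count is the read count of a gene divided by a factor for the library's depth. The KO level of Zmym2 was 0.549 times that of WT (95% interval 0.529 to 0.570), and since a frameshift need not remove the messenger, this level is no check of the knockout itself. The libraries held between 41840774 and 50120551 reads on genes, and 12896 genes averaged 50 normalised counts or more across the 3 libraries. All 9 ESC marker genes passed this minimum, and their summed level was 195393 in WT, 177912 in KO and 145614 in OE. Without replicates there is no test and no SD. The intervals given with ratios and levels are exact 95% intervals for counting error only, so they do not cover differences between cultures of the same genotype.

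Of the 10 genes, 9 passed the minimum of 50 normalised counts, and Osmr, with a mean of 37.6, did not. In KO cells all 9 were below WT by less than 2-fold, although Il6st moved just above WT, to 1.004 times, when the median of its chromosome set the scale. In OE cells the picture was mixed: Lif and the untested Osmr were several fold higher, Lifr was close to 2-fold lower, Jak1 and Pim1 were moderately higher, and Stat3, Socs3 and Bcl3 were moderately lower. Il6st and Pim3 were close to WT in both lines.

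**Figure D1:**
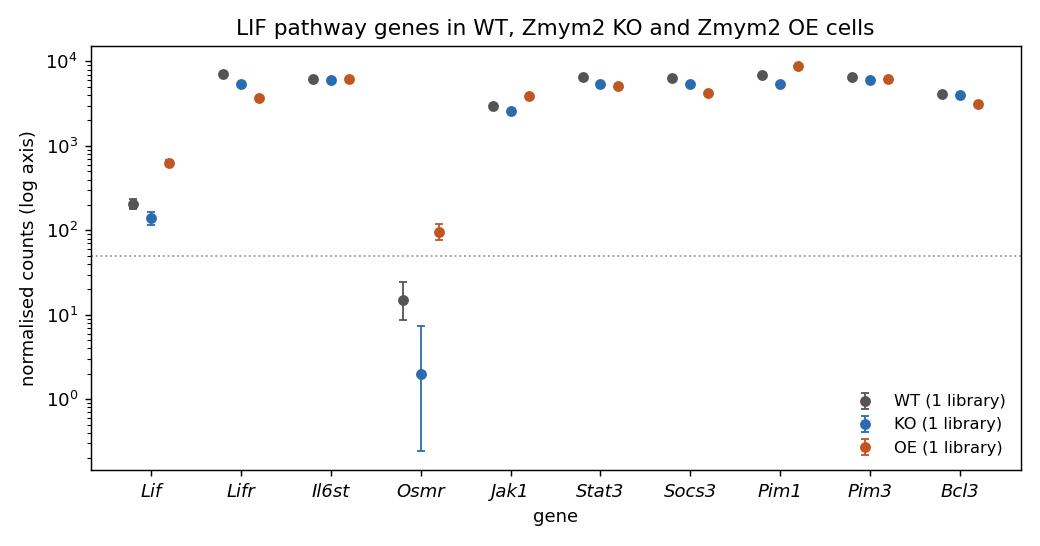
Normalised counts (log axis) of the 10 genes in the WT, KO and OE libraries, 1 library each, with exact 95% Poisson intervals as bars. The other 8 genes lay between 2590 and 8824 normalised counts in all 3 libraries, whereas Lif lay between 138 and 632 and Osmr between 2.02 and 95.7, and the dotted line marks the minimum of 50.

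The RefSeq promoter windows of 4 of these genes are shown because the first 3 were the genes furthest from WT in OE cells, and Socs3 was the 1 gene of the 10 whose window held a STAT motif. Each window runs from 250 bases before to 50 bases after the annotated start, on the gene's own strand, in build GRCm38.p6. Capitals mark matches to the STAT motif (TTCNNNGAA) or the AP-1 motif (TGANTCA). The windows lie at chr11:4257318-4257617 on the plus strand for Lif, chr15:7129322-7129621 on the plus strand for the first of the Lifr starts, chr15:6874264-6874563 on the minus strand for Osmr and chr11:117969317-117969616 on the minus strand for Socs3.
Lif: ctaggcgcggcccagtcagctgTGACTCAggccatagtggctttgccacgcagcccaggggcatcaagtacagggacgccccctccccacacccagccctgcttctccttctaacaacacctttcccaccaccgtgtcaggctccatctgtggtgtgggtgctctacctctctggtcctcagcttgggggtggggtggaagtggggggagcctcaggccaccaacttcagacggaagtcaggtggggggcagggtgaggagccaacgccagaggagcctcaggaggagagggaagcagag
Lifr: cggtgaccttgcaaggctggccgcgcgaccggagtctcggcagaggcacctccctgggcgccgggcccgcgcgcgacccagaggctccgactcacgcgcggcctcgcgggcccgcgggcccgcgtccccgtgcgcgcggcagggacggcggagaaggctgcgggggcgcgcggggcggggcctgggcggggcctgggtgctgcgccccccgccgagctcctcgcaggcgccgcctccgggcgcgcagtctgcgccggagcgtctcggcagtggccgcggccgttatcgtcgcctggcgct
Osmr: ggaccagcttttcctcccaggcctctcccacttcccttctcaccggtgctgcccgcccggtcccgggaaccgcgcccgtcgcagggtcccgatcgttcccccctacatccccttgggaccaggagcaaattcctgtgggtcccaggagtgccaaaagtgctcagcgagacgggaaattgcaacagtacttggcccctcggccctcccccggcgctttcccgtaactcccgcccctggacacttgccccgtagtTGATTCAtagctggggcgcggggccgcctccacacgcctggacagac
Socs3: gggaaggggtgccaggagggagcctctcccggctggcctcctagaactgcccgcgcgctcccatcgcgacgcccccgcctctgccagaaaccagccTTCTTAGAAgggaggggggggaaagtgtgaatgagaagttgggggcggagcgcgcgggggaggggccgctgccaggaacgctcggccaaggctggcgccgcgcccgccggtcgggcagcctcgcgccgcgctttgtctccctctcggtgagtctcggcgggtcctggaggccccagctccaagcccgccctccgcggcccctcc

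All 10 genes matched a RefSeq entry, with 12 windows in all, since Lifr and Pim1 had 2 starts each. Both strands were searched, and positions count from the annotated start, the base just before it being -1. The STAT motif, to which STAT dimers bind, was found in 1 of the 10 genes, Socs3, with its first base at -154, and in 8.30% of the 32851 RefSeq promoter windows. The AP-1 motif, bound by dimers of FOS and JUN proteins, was found in Lif at -228 and in Osmr at 4, and in 7.81% of all windows. The GC box GGGCGG, bound by SP1, was found in 9 of the 10 genes, all but Lif, and in 35.7% of all windows. No member window held the TATA box TATAAA, which was in 13.6% of all windows. The Lifr window held no STAT or AP-1 match and was 81.3% G and C, with 53 CpG dinucleotides, more than 99.5% of all windows. These are matches of letters in short windows and were not measured as sites. The RefSeq start of Lifr used here lies 38958 bases downstream of the gene start in the GENCODE M21 annotation, and those of Socs3 and Osmr lie 681 and 656 bases downstream of theirs, so other starts of these genes lie outside the sequences shown.

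Lif, on chromosome 11 from 4257557 to 4272514 on the plus strand, encodes the cytokine itself. Its level was 205 normalised counts in WT (95% interval 179 to 234), 138 in KO (116 to 164) and 632 in OE (581 to 686). The intervals of the 3 libraries did not overlap: KO was lowest and OE highest. Lif was 0.675 times WT in KO (0.541 to 0.840) and 3.08 times WT in OE (2.63 to 3.62), and OE was 4.56 times KO (3.78 to 5.54). The LIF protein that all cells received in the medium is not seen by this measurement.

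Lifr, on chromosome 15 from 7090614 to 7197489 on the plus strand, encodes the chain that binds LIF. It had 7031 normalised counts in WT, 5394 in KO and 3675 in OE, from 7441, 5340 and 3339 reads. Both lines were thus below WT, OE more so. The ratio to WT was 0.767 in KO (0.741 to 0.795) and 0.523 in OE (0.502 to 0.545), and the second interval ends just short of a 2-fold reduction.

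Il6st, on chromosome 13 from 112464070 to 112510086 on the plus strand, encodes gp130, with which LIFR pairs. It differed little among the libraries, at 6112 normalised counts in WT, 6050 in KO and 6280 in OE. Its ratios to WT were 0.990 in KO (0.956 to 1.03) and 1.03 in OE (0.991 to 1.07), and both intervals held 1. So the pair of chains that make the LIF receptor differed from each other: within a library, per kilobase of exon, the Lifr level was 1.18 times that of Il6st in WT, 0.918 times in KO and 0.603 times in OE.

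Osmr, on chromosome 15 from 6813577 to 6874969 on the minus strand, encodes the chain that pairs with gp130 to bind oncostatin M. It was rare in all libraries, at 15.1 normalised counts in WT (8.64 to 24.6), 2.02 in KO (0.245 to 7.30) and 95.7 in OE (76.7 to 118), from 16, 2 and 87 reads. The order was the same as for Lif, and the 3 intervals did not overlap. The ratio to WT was 0.134 in KO, where 2 reads give a wide interval (0.0149 to 0.568), and 6.33 in OE (3.69 to 11.6). Per kilobase of exon the Osmr level was 0.0232 of the Lifr level in the OE library and 0.00191 of it in the WT library, so Lifr remained by far the more abundant of these chains.

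The markers of some other cell types were also higher in the OE library in which Lif and Osmr were higher. In bulk RNA, more cells of a type and more RNA per cell cannot be told apart. Of all genes past the minimum, 47.8% were above WT in OE and 44.7% in KO. Of 15 fibroblast markers, 15 were above WT in OE, and 7 of the 11 that passed the minimum were at least 2-fold higher, beside 9.74% of all genes. Dcn, at 5.67 normalised counts in WT, 22.2 in KO and 133 in OE, passed the minimum through the OE library. The 15 markers summed to 56086 in WT, 50619 in KO and 77072 in OE, most of it from Fn1. Lum was at 0 in WT, and Col3a1 and Postn were at 0 in KO. The trophectoderm list differed most in sum. Of 10 trophectoderm markers, 8 were above WT in OE, with none at 0 in any library and a summed level of 6444 in WT, 4634 in KO and 37012 in OE. Most of the OE sum came from Krt8 (18258) and Krt18 (12754). Tfap2c, the highest of these markers in WT at 2959, was 0.728 times WT in OE. Elf5, with 7 reads in WT and 5 in OE, was not higher either. Of 10 primitive endoderm markers, 9 were above WT in OE, again with none at 0, and the list summed to 15105 in WT, 12449 in KO and 22520 in OE. Lama1 was the exception, at 0.498 times WT in OE, and most of the OE sum came from Lamb1 (11150) and Col4a1 (6451). Of the 8 past the minimum, only 2 were at least 2-fold higher in OE, Dab2 and Col4a1. Pdgfra had 71 reads in both WT and OE, and Foxa2 had 29 in WT and 26 in OE. These were above WT only after the division by library depth. Of 8 blood and macrophage markers, 6 were above WT in OE and 5 in KO, but only 2 passed the minimum. Csf1r, with 2 reads in each library, was above WT only after the division by library depth. Ptprc had 2, 3 and 9 reads in WT, KO and OE. Their sum was 2585 in WT, 2454 in KO and 2182 in OE, most of it from Laptm5 (1889, 2028 and 1372). Tyrobp, which marks macrophages, was at 0 in all 3 libraries. The part of these cell types in the levels of Lif, Osmr and the other genes was not tested.

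Jak1, on chromosome 4 from 101152367 to 101265282 on the minus strand, encodes the main kinase on gp130. It had 2969 normalised counts in WT, 2590 in KO and 3866 in OE. Its order was that of Lif, with smaller differences: 0.872 times WT in KO (0.828 to 0.919) and 1.30 times WT in OE (1.24 to 1.37).

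Stat3, on chromosome 11 from 100885098 to 100939540 on the minus strand, had 6524 normalised counts in WT, 5355 in KO and 5056 in OE. WT was the highest of the 3, and KO and OE were close. The ratio to WT was 0.821 in KO (0.792 to 0.851) and 0.775 in OE (0.746 to 0.804), while OE was 0.944 times KO (0.907 to 0.982), a difference whose side of 1 changed with the scaling and reached 1.01 when Gapdh was used.

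Socs3, on chromosome 11 from 117966079 to 117970047 on the minus strand, encodes the feedback inhibitor of gp130 signalling and is a direct STAT3 target. It had 6421 normalised counts in WT, 5397 in KO and 4257 in OE, the same order as Lifr. Its ratio to WT was 0.841 in KO (0.811 to 0.871) and 0.663 in OE (0.637 to 0.690). Per kilobase of merged exon it stayed above Stat3 in each library, at 3.24 times its level in WT, 3.32 times in KO and 2.77 times in OE. In counts not divided by length, Socs3 was below Stat3 in WT and OE.

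Pim1 and Pim3 encode serine/threonine kinases that favour cell survival and growth, and both genes are known to be induced by LIF in mouse ESCs. Pim1, on chromosome 17 from 29490753 to 29496112 on the plus strand, had 6848 normalised counts in WT, 5412 in KO and 8824 in OE. Its ratio to WT was 0.790 in KO (0.763 to 0.819) and 1.29 in OE (1.25 to 1.33). Pim1 was therefore among the genes with WT in the middle, as were Lif, Osmr and Jak1. Pim3, on chromosome 15 from 88862186 to 88865726 on the plus strand, had 6521 normalised counts in WT, 6024 in KO and 6237 in OE, and its ratios were 0.924 (0.892 to 0.957) and 0.956 (0.923 to 0.991). Both differences of Pim3 were small beside those of Pim1.

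Bcl3, on chromosome 7 from 19808462 to 19822770 on the minus strand, encodes a nuclear protein of the IκB family that modulates NF-κB. It had 4119 normalised counts in WT, 4021 in KO and 3096 in OE. The KO ratio of 0.976 had an interval that held 1 (0.935 to 1.02), and OE was 0.752 times WT (0.717 to 0.788).

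**Figure D2:**
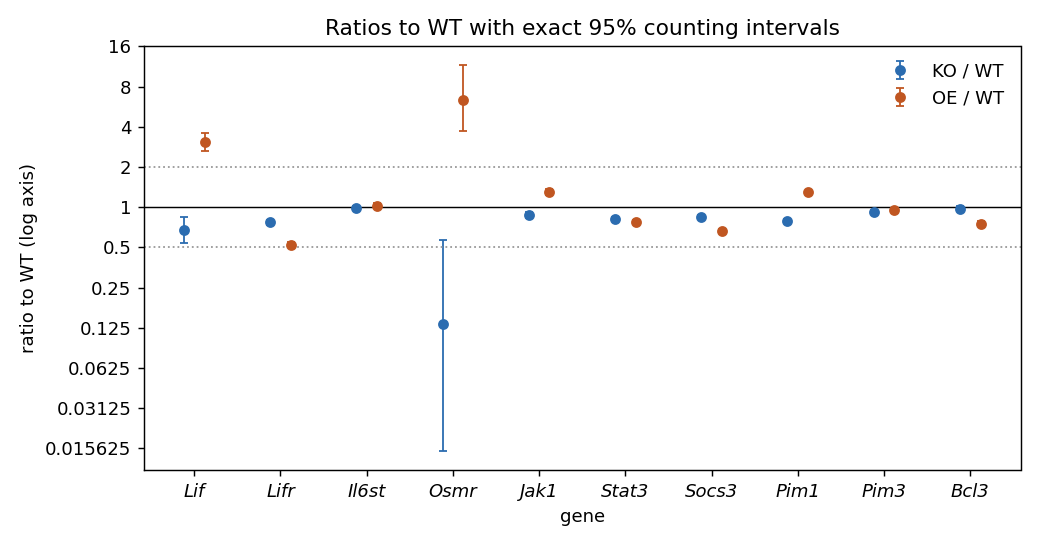
Ratio of each gene's level to WT (log axis) in KO and OE cells, with exact 95% counting intervals as bars and dotted lines at 2-fold. KO ratios ran from 0.134 for Osmr to 0.990 for Il6st, the last of which passed 1 when scaled to its chromosome, and OE ratios ran from 0.523 for Lifr to 6.33 for Osmr.

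Among the 9 genes past the minimum, 0 were at least 2-fold higher and 0 at least 2-fold lower in KO than in WT. Of all 12896 genes past the minimum, 2.43% were at least 2-fold higher and 3.09% at least 2-fold lower in that comparison. Counting error alone was exceeded by 7 of the 9, all but Il6st and Bcl3, but 60.5% of all genes had an interval clear of 1 as well. The median log2 ratio of the 9 genes was -0.25, with 0 above WT and 9 below (1 and 8 when scaled to chromosome medians), beside -0.03 for all genes, of which 44.7% were above WT.

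In OE against WT, 1 of the 9 genes was at least 2-fold higher, Lif, and 0 were at least 2-fold lower, beside 9.74% and 3.12% of all genes. An interval clear of 1 was found for 8 of the 9, all but Il6st, and for 72.1% of all genes. The median log2 ratio was -0.06, with 4 above and 5 below WT, beside -0.02 for all genes, of which 47.8% were above WT. In OE against KO, 1 of 9 was again 2-fold higher, Lif, and 0 were lower, beside 12.9% and 5.47% of all genes. Intervals were clear of 1 for 8 of the 9, all but Pim3, and for 78% of all genes. These comparisons share libraries, so they are not separate evidence. With a minimum of 10 normalised counts, Osmr was also counted, which made it 1 gene in KO and 2 in OE.

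Levels of different genes can be compared per kilobase of exon. On this scale the order in WT was Pim3 (2687 normalised counts per kilobase), Socs3 (2221), Pim1 (2037), Bcl3 (1664), Stat3 (685), Lifr (652), Il6st (551), Jak1 (411), Lif (47.1) and Osmr (1.25). The STAT3-induced genes thus led the list and the signalling chain followed at lower levels. In KO the first 4 were Pim3 (2482), Socs3 (1867), Bcl3 (1624) and Pim1 (1610), Bcl3 having moved ahead of Pim1. In OE Pim1 (2625) and Pim3 (2570) led, and Lifr (341) came below Il6st (566), Jak1 (535) and Stat3 (531). Lif stayed below Lifr in every library, at 0.0722 of its level in WT, 0.0636 in KO and 0.426 in OE.

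Within their protein families, the 10 genes did not hold the same place in each library. Among receptor chains that pair with gp130, Lifr made up 54.6% of the summed level per kilobase in WT, 66.1% in KO and 23.0% in OE. Cntfr, the chain that binds ciliary neurotrophic factor and recruits LIFR and gp130, made up 42.4%, 28.9% and 72.9%. Lifr was thus the most abundant of the listed chains in WT and KO and Cntfr in OE. Since the Cntfr product acts together with LIFR, these shares do not show that it took the place of LIFR. Among JAK kinases, Jak1 made up 33.3% in WT, 30.4% in KO and 44.2% in OE, and Jak2 5.08%, 5.18% and 17.0%. Among PIM kinases, Pim1 made up 32.9%, 22.8% and 31.8%, and Pim2, which is not among the 10 genes, 23.7%, 42.1% and 37.1%. Stat3 and Socs3 were the most abundant of their families in all 3 libraries: Stat3 made up 45.1%, 42.0% and 41.2% of the STAT level, and Socs3 62.0%, 62.9% and 51.2% of the SOCS level.

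**Figure D3:**
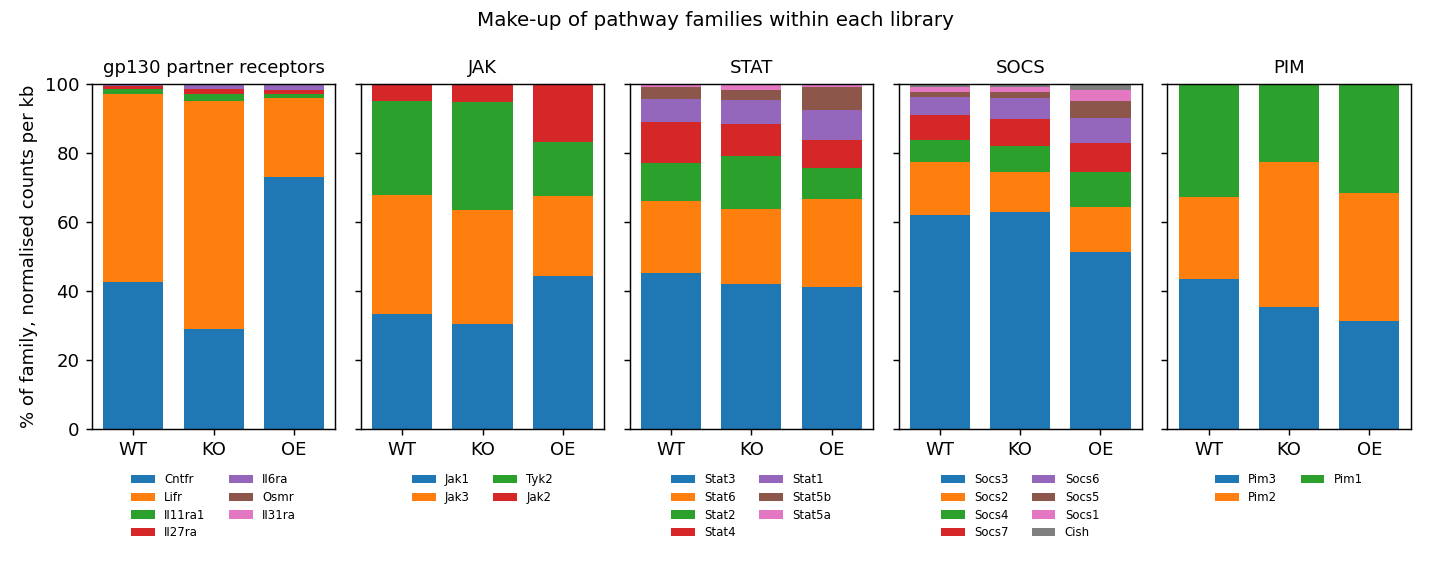
Share of each gene in the summed level of its family (normalised counts per kilobase of exon, %) in WT, KO and OE, 1 library each. The panel headed gp130 partner receptors also holds chains that act together with LIFR, such as that of Cntfr. In this panel Lifr fills 54.6% in WT and 23.0% in OE, where Cntfr fills 72.9%, while Stat3 and Socs3 stay the largest of their families.

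The rest of the pathway was described with a list of 69 other genes, of which 58 passed the minimum. The minimum is on the mean of the 3 libraries, so a gene that is low in WT, such as Il6ra or Pramel7, can pass through the library in which it is high. In KO against WT, 3 of the 58 were at least 2-fold higher and 4 at least 2-fold lower, that is 5.17% and 6.90%. In OE against WT, 11 were higher and 1 lower, 19.0% and 1.72%. In OE against KO, 14 were higher and 2 lower, 24.1% and 3.45%. Against the shares of all genes given above, the list held more 2-fold higher genes in OE, a difference that was not tested. The list was chosen with earlier results of these data known, so no conclusion is drawn from this difference. Its median log2 ratio was -0.13 in KO, with 41 of 58 below WT, and 0.11 in OE, with 33 of 58 above WT. Of all genes past the minimum, 44.7% were above WT in KO and 47.8% in OE.

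**Figure D4:**
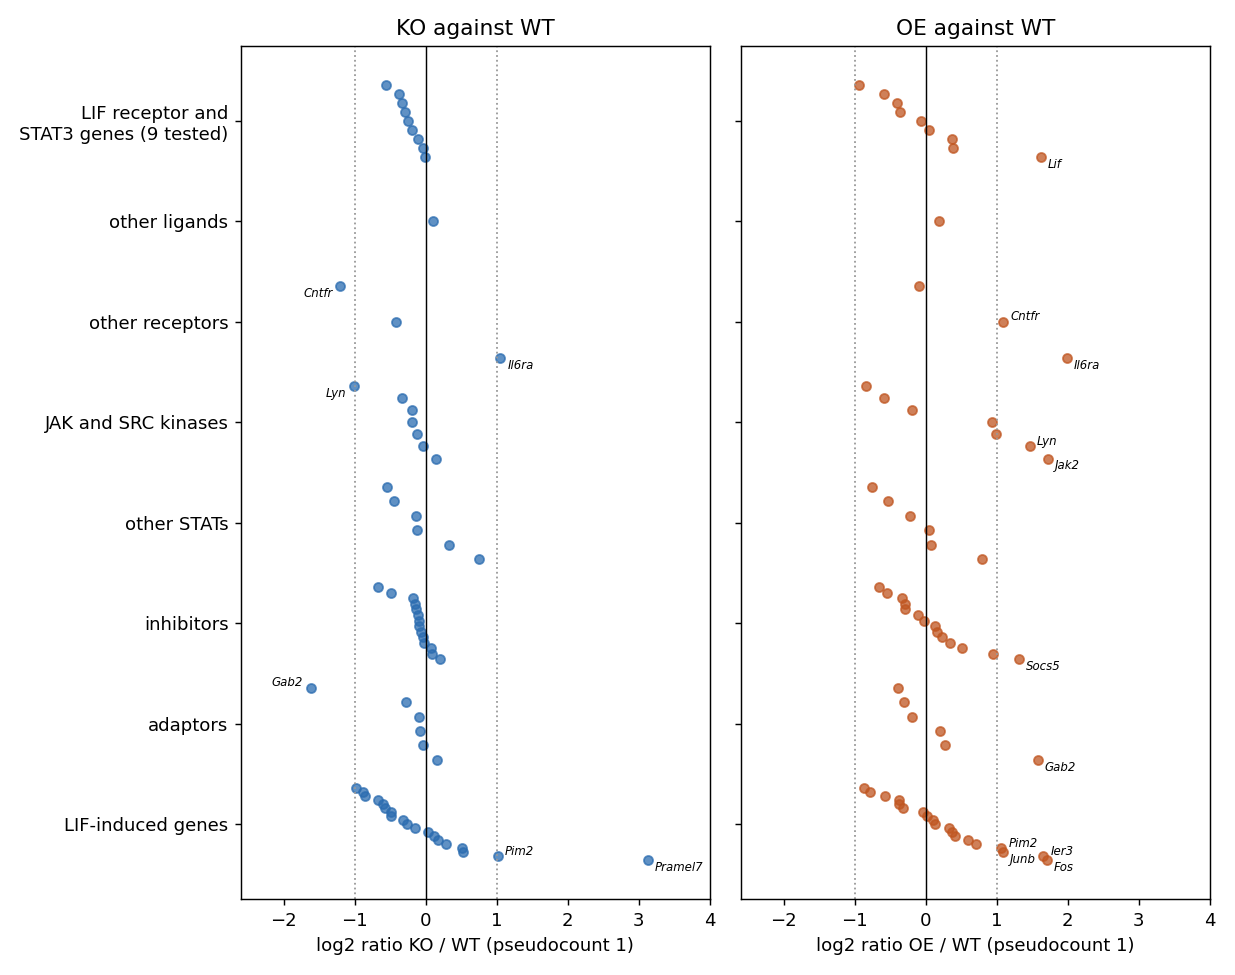
Log2 ratio to WT (pseudocount 1) of genes past the minimum, by role and without a few that are not reported here, in KO (left) and OE (right), with dotted lines at 2-fold and names on genes beyond them. In KO most points lie between the lines, with Pramel7 (8.95 times WT) furthest out, and in OE more points lie beyond the upper line, such as Il6ra (4.03 times) and Jak2 (3.29 times).

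Of 10 further ligand genes, 2 passed the minimum. Ctf1, the cardiotrophin gene, had 109 normalised counts in WT, 117 in KO and 123 in OE, and so differed little. Clcf1 and Il27 had 0 reads in all libraries, which allows up to 3 reads, or 2.83 to 3.30 normalised counts. Osm, whose product binds the chain encoded by Osmr, had 10, 33 and 7 reads in WT, KO and OE and was highest in KO, where Osmr was lowest. Its KO to WT ratio of 3.53 had an interval of 1.70 to 8.03.

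Of 5 further receptor genes, 3 passed the minimum. Cntfr had 1411 normalised counts in WT, 609 in KO and 3009 in OE, giving ratios of 0.432 (0.392 to 0.475) and 2.13 (2.002 to 2.27). Il6ra, the chain that binds interleukin 6, was higher in both lines, at 45.4 in WT, 94.96 in KO and 183 in OE, giving ratios of 2.09 (1.46 to 3.03) and 4.03 (2.91 to 5.68). In OE, then, the genes of 3 chains that act with gp130, Osmr, Cntfr and Il6ra, were higher than in WT while that of the LIF receptor was lower. Il11ra1, the interleukin 11 chain, had 86.9, 64.7 and 81.4 normalised counts.

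All 8 further JAK and SRC family kinase genes passed the minimum. Jak2, which acts beside JAK1 on gp130, had 315 normalised counts in WT, 307 in KO and 1036 in OE, an OE ratio of 3.29 (2.90 to 3.74). Tyk2 and Jak3, the other kinases of that family, were lower in OE, at 0.560 (0.522 to 0.601) and 0.664 (0.621 to 0.710) times WT. Lyn, a SRC family kinase, was 0.491 times WT in KO (0.362 to 0.660) and 2.77 times WT in OE (2.28 to 3.38). The JAK family as a whole did not move one way in OE: Jak1 and Jak2 were higher, Jak3 and Tyk2 lower.

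None of the 6 further STAT genes was 2-fold apart from WT in either line. The most abundant of them, Stat6, a factor of interleukin 4 signalling, had ratios of 0.909 (0.843 to 0.981) in KO and 1.03 (0.957 to 1.11) in OE. Of 14 further inhibitor genes, 0 were 2-fold apart in KO and 1 was in OE, Socs5, an inhibitor of interleukin 4 signalling, at 2.48 times WT (2.20 to 2.80). Of all genes, 2.43% were 2-fold higher and 3.09% lower in KO, and 9.74% and 3.12% in OE. Socs2, a feedback inhibitor of growth hormone signalling, was lower in both lines, like Socs3, at 0.628 (0.601 to 0.655) times WT in KO and 0.682 (0.653 to 0.712) in OE. Of 6 adaptor genes that link the receptor to the ERK and PI3K arms, only Gab2 was 2-fold apart, at 0.314 times WT in KO (0.181 to 0.524) and 3.01 times in OE (2.27 to 4.05). Gab1, the far more abundant relative of Gab2, was lower in both lines, at 0.822 (0.808 to 0.836) and 0.765 (0.751 to 0.778) times WT.

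Pim1, Pim3 and Bcl3 were all below WT in KO and went in different directions in OE. Other genes known to be induced by LIF or STAT3 went in different directions in both lines. Of 20 listed, 19 passed the minimum. In KO, 2 were 2-fold higher and 0 lower, beside 2.43% and 3.09% of all genes. The median log2 ratio was -0.27, beside -0.03 for all genes. Of the 2 higher genes, Pramel7 passed the minimum through the KO library, with 40.6 normalised counts in WT and 364 in KO. In OE, 4 were 2-fold higher and 0 lower, beside 9.74% and 3.12% of all genes. The median was 0.14, beside -0.02 for all genes. The 4 higher genes were Junb and Fos, which encode AP-1 proteins, Ier3, an immediate early gene, and Pim2. Junb had 1518 normalised counts in WT, 840 in KO and 3230 in OE, an OE ratio of 2.13 (2.001 to 2.26), and Fos had 84.1, 52.5 and 276, with an OE ratio of 3.28 (2.57 to 4.23). Junb and Fos were lowest in KO and highest in OE. Other AP-1 genes were not in this list, and a link to the AP-1 motifs above was not tested.

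Several genes of this list maintain naive pluripotency, and 3 of them, named after their values were seen, were lower in both lines. Klf4 was 0.673 times WT in KO (0.648 to 0.699) and 0.770 in OE (0.741 to 0.800), Tfcp2l1 was 0.656 (0.639 to 0.674) and 0.772 (0.752 to 0.793), and Gbx2 was 0.506 (0.480 to 0.533) and 0.669 (0.637 to 0.702). All 3 had WT highest, like Stat3 and Socs3, but Klf5, which acts with Klf4, was 0.901 times WT in KO (0.877 to 0.924) and 1.07 times in OE (1.04 to 1.10). Pim2, by contrast, was higher in both, at 2.02 (1.95 to 2.10) and 2.09 (2.01 to 2.17) times WT. Pramel7, a gene of the early embryo that LIF induces, had 43, 360 and 21 reads in WT, KO and OE, and its KO ratio of 8.95 (6.51 to 12.6) was the largest of the 58. Mcl1, a survival gene, hardly differed, at 1.02 (1.003 to 1.04) and 1.01 (0.997 to 1.03).

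Lifr and Osmr lie close together on chromosome 15, their GENCODE starts 216 kilobases apart, yet in OE the first was lower and the second higher. Within 5 megabases of Lifr, 31 genes had a median ratio to WT of 0.967 in KO and 0.969 in OE, so the stretch as a whole was near WT. Single genes there differed widely in OE: Ghr, the growth hormone receptor, was 17.4 times WT, Dab2, an endocytic adaptor, 3.75 times, and Prlr, the prolactin receptor, 0.350 times. Rictor, a subunit of the mTOR complex that lies on the far side of Osmr, was 0.984 times WT. The chromosome medians for the 10 genes ran from 0.981 to 1.01 in KO and from 0.953 to 0.989 in OE. Such medians do not describe single genes, and a change of copy number was not tested.

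**Figure D5:**
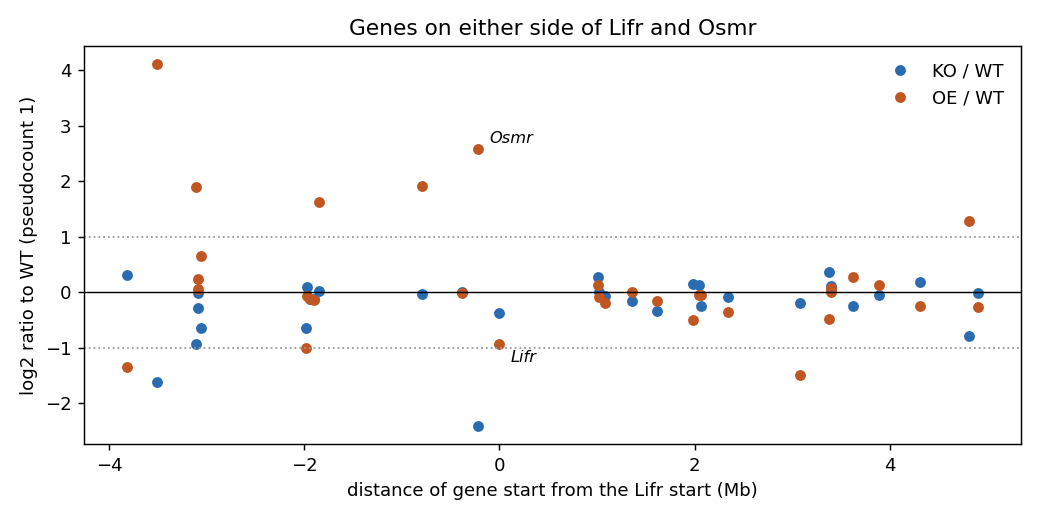
Log2 ratio to WT (pseudocount 1) in KO and OE of Osmr and of genes past the minimum within 5 megabases of Lifr, against the distance of their start from the Lifr start, with dotted lines at 2-fold. Lifr (OE ratio 0.523) and Osmr (6.33) are close together and lie on opposite sides of 0, and most genes around them are near 0.

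Lif was the 1 gene of the 9 past the minimum that was 2-fold apart from WT, and its pattern was compared with 9913 genes of at least 200 normalised counts on average. By the distance between the pair of log2 ratios to WT, the most alike over these 3 libraries were Ptprn (distance 0.02), a secretory vesicle protein gene, with 662 normalised counts in WT, 443 in KO and 2027 in OE, Nrg1 (0.03), a ligand of ERBB receptors, with 151, 100 and 466, and Syde1 (0.05), with 212, 138 and 663. In all, 46 of the 9913 genes lay within a distance of 0.25 of Lif.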

How the data were processed

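RNA-seq values of 3 libraries of E14tg2a ESCs were used, 1 each of WT, KO and OE. By the study's methods, ribosomal RNA was depleted and strand-specific libraries were sequenced, and the submitters' processing notes name Trim Galore, TopHat2, featureCounts and DESeq2. The genome was GRCm38, and the annotation release was not given in the sources used here. Each deposited signal value is a read count of a gene after division by a DESeq2 size factor, as made by the authors. A division by transcript length is described in the methods, but 100% of the values were whole multiples of 1 read (tolerance 1e-06), so none is contained in them.

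Whole reads were recovered by dividing by the value of 1 read, which gave 50120551, 46995766 and 41840774 reads in WT, KO and OE, with size factors of 1.06, 0.990 and 0.909. Ratios have Clopper-Pearson intervals from the reads of both libraries and levels have Poisson intervals, both at 95%. Without molecular identifiers the reads are not independent molecules, so these cover counting error only. Genes 2-fold apart were counted with a pseudocount of 1 among those that averaged 50 normalised counts or more. With 1 library per condition neither a p-value nor a count model could be had, so edgeR was not used to test the recovered reads. The counting was tested on simulated data.

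Exon lengths and positions came from GENCODE M21 (GRCm38), which held 96.0% of gene identifiers, and promoters from RefSeq (GRCm38.p6). The 10 genes and the lists were chosen with earlier results of these data known. All 10 genes were named, and from each list the genes 2-fold apart in either line and at 100 normalised counts or more in the higher of the libraries and up to 3 of the highest mean. As most alike, 3 genes were named by distance, without predicted, ribosomal and pseudogene-like names. Osm, Clcf1, Il27, Jak3, Tyk2, Klf4, Tfcp2l1, Gbx2, single markers and the neighbours of Lifr were named after their values were seen. Some list genes that met this rule are not reported here, in the text or the plots. Left unused were 7 columns of levels, being repeats of the gene table, columns of a table with exchanged headings, or a rescue line.

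As alternatives, values were scaled to total gene reads, housekeeping genes, Gapdh, chromosome medians or TMM factors (edgeR), or counted with other pseudocounts, minimums and folds. Software was R 4.3.3 (edgeR 4.0.16) and Python 3.11.15 (scipy 1.17.1, pandas 2.3.3, numpy 2.4.6, matplotlib 3.10.9).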

Additional observations from a re-analysis of the deposited data

How the results depend on the processing

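No paired analysis was possible because there was 1 library per condition, and for the same reason no library could be left out. No called value changed sign under the alternatives run. Osmr enters the count of genes 2-fold apart with a minimum of 10 or with none, which gave 1 gene in KO against WT, 2 in OE against WT (Osmr and Lif) and 2 in OE against KO, and the median log2 ratio in OE against WT was then -0.0125. With a 1.5-fold threshold the counts were 3 in OE against WT (Lifr, Socs3 and Lif) and 2 in OE against KO (Pim1 and Lif). Scaled to Gapdh, which shifted the median of all genes by -0.08 in KO, the median log2 ratio of the 9 genes was -0.33 in KO against WT and 0.15 in OE against KO. Over all scalings the OE ratio of Lif ran from 3.00 to 3.23, that of Lifr from 0.509 to 0.538 and that of Osmr from 6.17 to 6.51, and only the KO ratio of Il6st (up to 1.004) and the OE to KO ratio of Stat3 (up to 1.01) changed their side of 1.

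The alternatives for the other pathway genes were chosen after seeing the data. The number higher in KO was 1 with Gapdh, with a minimum of 200 and with a 3-fold threshold, 5 with a minimum of 10 and 7 with none. The number lower in KO was 2 with a minimum of 200, 10 at 1.5-fold and 1 at 3-fold. In OE against WT, the number higher was 7 with a minimum of 200, 17 at 1.5-fold and 5 at 3-fold, and the number lower was 2 with a minimum of 10 or none, 7 at 1.5-fold and 0 at 3-fold. In OE against KO, the number higher was 7 at 3-fold, and the number lower was 1 with Gapdh, with a minimum of 200 and at 3-fold, 5 with a minimum of 10, 7 with none and 6 at 1.5-fold. Fewer or more genes are counted by construction under a stricter or looser minimum or fold. The cause of the Gapdh differences was not tested. Of the ratios of the 10 genes under each scaling, 19 moved outside their counting interval and 131 did not. Depth limits Osmr most, with 2 reads in KO.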
